A study of Homo sapiens with 6 samples.

Results

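The genes described here are 10 genes of the aryl hydrocarbon receptor (AHR) and hypoxia pathways: AHR, AHRR, ARNT, CYP1A1, CYP1B1, TIPARP, HIF1A, EPAS1, EGLN1 and VHL. They were chosen by name, with earlier results of these data known. A binding peak was assigned to a gene when it lay inside the gene body or within 3 kb of it on hg38. By this rule 57 of the 81170 peaks in 4 peak lists belonged to the 10 genes, out of 20037 protein-coding genes. The chromatin came from 2 clones (#4 and #5) of K562, a human chronic myelogenous leukemia cell line. Both clones co-overexpressed USF2, an E-box-binding transcription factor, and Flag-PLAG1-S, a FLAG-tagged short form of the zinc finger protein PLAG1. By the study's methods such cells carry the transgenes joined in a single vector, so PLAG1-S was seen through its tag and USF2 through an antibody that does not tell the transgene from the cell's own protein. From every clone there was a PLAG1-S library (anti-Flag), a USF2 library (anti-USF2) and an input, which gave n = 2 clones per factor. All libraries came from cells with both transgenes, the labels give no treatment, and the data hold binding and no expression.

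AHR is a ligand-activated transcription factor that waits in the cytosol with chaperones, and on binding dioxin-like or endogenous ligands enters the nucleus and pairs with ARNT. The pair activates the cytochrome P450 genes CYP1A1 and CYP1B1, as well as AHRR and TIPARP, whose products in turn restrain the receptor. ARNT is also the partner of the hypoxia-inducible alpha subunits HIF1A and EPAS1 (HIF-2alpha), which the prolyl hydroxylase EGLN1 marks in the presence of oxygen for destruction through the VHL ubiquitin ligase. Both pathways are known in blood stem cells. AHR antagonists help to keep primitive cells in culture, and low oxygen is a feature of the marrow in which stem cells reside.

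PLAG1-S peaks were found at most of these genes and USF2 peaks at few. A peak called at the same place in both clones (clone #4 and clone #5 intervals sharing at least 1 bp, termed reproducible) was present for PLAG1-S at 9 of the 10 genes, AHR being the exception, whereas 52.0% of all protein-coding genes had one. No gene of the 10 had a reproducible USF2 peak, where 10.3% of protein-coding genes did, and so none had a co-bound site, a reproducible PLAG1-S peak whose edges lay within 100 bp of a reproducible USF2 peak (9.98% of protein-coding genes). A count of 0 among 10 genes is near these backgrounds. Long genes offer more room for a peak, and the share with a reproducible PLAG1-S peak was 39.6% of protein-coding genes up to 8538 bp long (CYP1A1), 53.3% of those up to 24115 bp (CYP1B1 and VHL), 58.8% of those up to 65132 bp (AHR, EGLN1, HIF1A and TIPARP) and 56.4% of longer ones (AHRR, ARNT and EPAS1). With 2 clones per factor no test was made on the counts, and the shares describe these libraries.

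Sequence from RefSeq (GRCh38.p14) was matched for 8 of the 10 genes by symbol, and the 250 bases before the annotated start are shown for the genes on which the results turn. AHR is shown because it had no peak, HIF1A because it had the highest clone #4 fold enrichment, EPAS1 because a clone #4 peak lay wholly within the window, and EGLN1 beside its paralog EGLN2, because the latter was co-bound and EGLN1 was not. The windows are chr7:17298402-17298651 (plus strand) for AHR, chr14:61695263-61695512 (plus strand) for HIF1A, chr2:46297157-46297406 (plus strand) for EPAS1, chr1:231422288-231422537 (minus strand) for EGLN1 and chr19:40798941-40799190 (plus strand) for EGLN2. Capitals mark the E-box CACGTG, the sequence that USF2 recognizes, and a G-rich PLAG1-type pattern, GGGGC and GGG separated by 6 to 8 bases, on either strand.
AHR: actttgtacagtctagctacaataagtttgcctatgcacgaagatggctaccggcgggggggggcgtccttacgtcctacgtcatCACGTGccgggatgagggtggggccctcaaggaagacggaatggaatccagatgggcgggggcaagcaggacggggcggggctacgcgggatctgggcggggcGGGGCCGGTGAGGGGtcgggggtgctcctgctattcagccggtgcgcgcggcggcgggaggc
HIF1A: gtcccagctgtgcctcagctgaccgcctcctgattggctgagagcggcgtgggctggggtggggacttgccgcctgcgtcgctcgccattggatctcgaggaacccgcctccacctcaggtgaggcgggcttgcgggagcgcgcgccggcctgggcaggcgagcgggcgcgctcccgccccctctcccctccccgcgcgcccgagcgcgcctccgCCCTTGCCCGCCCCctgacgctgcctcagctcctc
EPAS1: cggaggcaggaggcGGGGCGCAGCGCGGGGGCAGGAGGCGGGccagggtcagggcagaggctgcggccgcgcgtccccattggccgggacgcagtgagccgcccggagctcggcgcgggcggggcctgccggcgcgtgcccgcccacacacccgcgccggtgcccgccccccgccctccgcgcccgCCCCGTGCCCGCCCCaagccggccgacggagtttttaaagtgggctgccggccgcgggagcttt
EGLN1: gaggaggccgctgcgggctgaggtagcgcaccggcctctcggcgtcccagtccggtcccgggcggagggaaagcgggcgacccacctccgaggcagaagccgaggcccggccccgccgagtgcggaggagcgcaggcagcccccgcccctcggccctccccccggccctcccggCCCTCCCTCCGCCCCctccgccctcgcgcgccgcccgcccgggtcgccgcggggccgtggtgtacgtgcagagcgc
EGLN2: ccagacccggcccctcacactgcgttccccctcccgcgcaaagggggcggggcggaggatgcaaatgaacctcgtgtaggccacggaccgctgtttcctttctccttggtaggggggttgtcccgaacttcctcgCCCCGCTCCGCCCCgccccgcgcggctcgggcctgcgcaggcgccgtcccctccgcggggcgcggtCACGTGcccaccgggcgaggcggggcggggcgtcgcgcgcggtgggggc

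The E-box was present in the start window of AHR and of no other of the 8 genes. In windows of 300 bases (250 before and 50 after each annotated start, both strands searched), it was found in 1 of the 12 windows of the 8 genes and in 8.34% of 22199 windows of protein-coding genes. The G-rich pattern occurred in 5 of the 12 windows, at AHR, EGLN1, EPAS1, HIF1A and TIPARP, and in 29.2% of the coding windows. GCGTG, the core recognized by AHR with ARNT, occurred in 7 of the 12 windows (AHR, AHRR, CYP1A1, EPAS1, HIF1A and TIPARP) and in 43.0% of the coding windows. ACGTG, a core recognized by HIF with ARNT, though not the only form of it, is also contained in CACGTG. It occurred in 3 of the 12, at AHR, CYP1A1 and EGLN1, against 23.0% of coding windows. These matches are descriptions of letters in a window and not binding sites.

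Of the receptors and their partner, AHR (chr7:17298652-17346147) had no peak in any of the 4 lists, whereas 68.8% of protein-coding genes had at least 1 peak of some list. The nearest peak of any list lay 594 kb from the AHR gene body, and 2.55% of protein-coding genes were as far from a peak or farther. Its E-box starts 165 bp before the annotated start, and the nearest PLAG1-S summit to it was 638174 bp away in clone #4 and 638189 bp in clone #5. The nearest USF2 summit was 642067 bp away in clone #4. Among coding start windows with a CACGTG, each place counted once where several entries share it, 38.9% of 1836 met a reproducible USF2 peak and 69.9% met a reproducible PLAG1-S peak, compared with 1.70% and 25.0% of the 20242 windows without one. AHR was among the windows with an E-box and no peak. A peak list does not give the input reads at a place without a peak, and why no peak was called at AHR was not tested.

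ARNT (chr1:150809713-150876599, minus strand), the common partner of AHR and the HIF alpha subunits, carried 1 PLAG1-S peak in each clone at its start. The clone #4 peak (chr1:150876263-150876480) had a fold enrichment of 4.91, that is, signal at the summit over the local background that the peak caller built from the merged inputs, and 20 fragments over the summit (95% Poisson interval 12.2 to 30.9, which covers counting error only). The clone #5 peak (chr1:150876337-150876725) had a fold enrichment of 4.45 with 19 fragments. The summits lay 296 bp and 161 bp inside the gene. Both were weaker peaks of their lists, at the top 57.1% and top 65.0% by fold enrichment, and neither USF2 list had a peak at ARNT.

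HIF1A, the alpha subunit of HIF-1 (chr14:61695513-61748258), had the PLAG1-S peak with the largest clone #4 fold enrichment of the 10 genes. The clone #4 peak (chr14:61695094-61695920) reached 17.4-fold enrichment, with 65 fragments where the background was 2.80, and the clone #5 peak (chr14:61695098-61695444) reached 10.3, with 36 fragments where it was 2.60. They ranked in the top 4.14% and the top 9.70% of their lists. Both backgrounds were the lowest of their lists. The 95% Poisson intervals of the fragments, 50.2 to 82.8 and 25.2 to 49.8, did not overlap. They cover counting error only, without scaling for library depth, at a site singled out for its clone #4 value. A difference between the clones was not tested. The clone #5 to clone #4 ratio of fold enrichments was 0.591, where the median over all 21469 reproducible PLAG1-S peaks was 0.887 (quartiles 0.730 and 1.08). The summits were 20 bp apart and lay 263 bp and 283 bp before the start of HIF1A.

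HIF1A was also the gene with the strongest USF2 peak of the 10. In clone #4 a USF2 peak (chr14:61695172-61695373) was enriched 7.63-fold with 28 fragments (95% Poisson interval 18.6 to 40.5), which placed it in the top 11.7% of its list with a −log10 q of 15.0. Its summit lay 227 bp before the start, 36 bp from the clone #4 and 56 bp from the clone #5 PLAG1-S summit, inside both PLAG1-S peaks. The clone #5 USF2 list had no peak there, and its nearest summit on the chromosome was 135469 bp away. The clone #5 USF2 list was the shortest, with 4369 peaks against 9338 in clone #4, and no peak of either list held fewer than 11 fragments, so fewer than these would not be seen. The HIF1A site was therefore co-bound in clone #4 and not reproducibly so. The window from 250 bp before to 50 bp after this start held no CACGTG. It covered only part of the USF2 peak and neither PLAG1-S summit, and the bases before it were not searched.

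Further PLAG1-S peaks at HIF1A lay at the starts of its antisense RNAs. The clone #4 peak at the start also reached the start of HIF1A-AS1, and in clone #5 a separate peak (chr14:61695806-61695961, fold enrichment 3.70, 14 fragments) had its summit 93 bp from the HIF1A-AS1 start. A clone #4 peak beyond the other end of the gene (chr14:61751176-61751385, fold enrichment 4.74, 17 fragments) had its summit 154 bp from the start of HIF1A-AS3 and 2993 bp past the end of HIF1A, just within the 3 kb limit, and was not called in clone #5.

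EPAS1, the alpha subunit of HIF-2 (chr2:46297407-46386697), was bound most strongly inside the gene. At the first internal site the PLAG1-S fold enrichments were 13.3 in clone #4 (chr2:46326295-46326601, 56 fragments) and 9.64 in clone #5 (chr2:46326274-46326667, 38 fragments), with summits 29037 bp and 29011 bp into the gene. At the second they were 12.1 (chr2:46339794-46340258, 63 fragments) and 7.35 (chr2:46339978-46340239, 40 fragments), with summits 42705 bp and 42720 bp into the gene. Both sites were in the top 9.14% or better of the clone #4 list and in the top 20.1% or better of the clone #5 list. They were lower in clone #5, with ratios of 0.726 and 0.608. At the first the 95% Poisson intervals of the fragments overlapped (42.3 to 72.7 and 26.9 to 52.2), as they did at the second (48.4 to 80.6 and 28.6 to 54.5).

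At the start of EPAS1 the clones had PLAG1-S peaks that did not meet. Clone #4 had peaks with summits 119 bp before (fold enrichment 5.44, 23 fragments) and 458 bp after the start (5.26, 24 fragments), and clone #5 had a single peak 526 bp before it (5.37, 21 fragments). A weaker clone #4 peak 19405 bp into the gene (3.60, 20 fragments) was also seen in that clone only. The single USF2 peak at EPAS1, in clone #5 (chr2:46351899-46352047, fold enrichment 4.23, 15 fragments), was 11824 bp from the nearest clone #5 PLAG1-S summit.

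**Figure D1:**
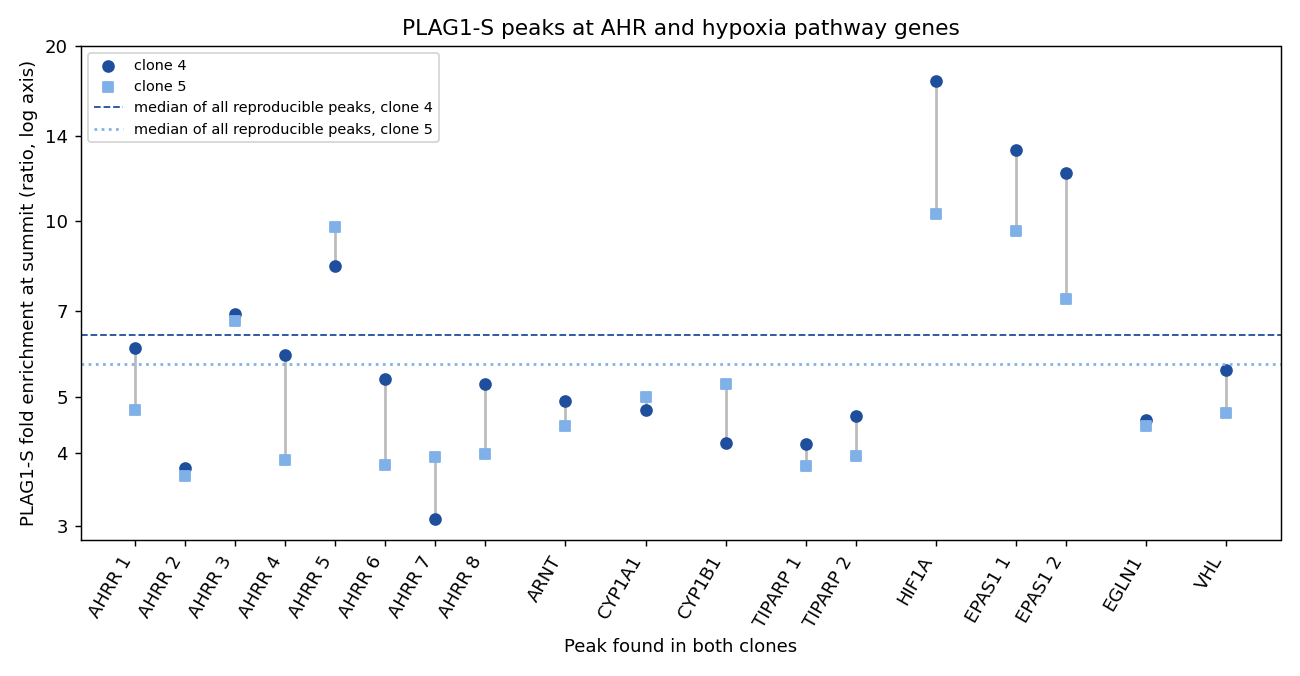
PLAG1-S fold enrichment at the summit (log axis) for each of the 18 peaks found in both clones at the genes, numbered along each gene by coordinate, with clone #4 as circles and clone #5 as squares, joined by a line. HIF1A and the EPAS1 sites reach 17.4, 13.3 and 12.1 in clone #4, and 13 of the 18 lie below the clone #4 median of all reproducible peaks, 6.39 (dashed line; the dotted line is the clone #5 median, 5.69).

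EGLN1 and VHL, which act on the HIF alpha subunits, each had a reproducible PLAG1-S peak near an end of the gene, with fold enrichments from 4.45 to 5.56. At EGLN1 (chr1:231363756-231422287, minus strand) the clone #4 peak (chr1:231422095-231422675) spanned the start with a fold enrichment of 4.56 and 28 fragments, and the clone #5 peak (chr1:231421918-231422687) did so with 4.45 and 25 fragments. The ratio of the clones was 0.977. Clone #5 had a second peak 661 bp into the gene (4.10, 21 fragments). At VHL (chr3:10141778-10153667) the peaks chr3:10141920-10142300 and chr3:10141911-10142312 had fold enrichments of 5.56 and 4.69, with 33 and 26 fragments. Their summits were 9 bp apart, 371 bp and 380 bp inside the end of the gene with the lower coordinate. No start or strand was matched for VHL, nor for CYP1B1 below, so distances at both genes are from the nearer end. The local background was above the list medians of 3.67 and 3.41 at both genes, 5.37 and 4.84 at EGLN1 and 5.12 and 4.76 at VHL, and neither gene had a USF2 peak.

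CYP1A1, CYP1B1 and TIPARP, which AHR activates, had PLAG1-S peaks near an end of the gene, with fold enrichments from 3.80 to 5.26 at the sites found in both clones. CYP1A1, the classical induced P450 (chr15:74719542-74725528, minus strand), had a peak before its start in both clones, chr15:74725890-74726163 with a fold enrichment of 4.74 in clone #4 and chr15:74725973-74726197 with 5.00 in clone #5, and 17 fragments in each. The summits lay 505 bp and 535 bp upstream. A further clone #5 peak 1050 bp upstream had a fold enrichment of 3.89 and 13 fragments. At CYP1B1 (chr2:38067509-38076151) the PLAG1-S peaks lay outside the gene, chr2:38077195-38077398 with a fold enrichment of 4.16 and 21 fragments in clone #4 and chr2:38077185-38077380 with 5.26 and 23 fragments in clone #5. The summits were 11 bp apart and 1168 bp and 1157 bp beyond the end with the higher coordinate. The fold enrichment was higher in clone #5 at CYP1A1 and CYP1B1 (ratios 1.05 and 1.27), and the fragment counts differed by no more than counting error.

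CYP1B1 had a USF2 peak in clone #5 only (chr2:38074719-38074867, fold enrichment 4.06, 14 fragments, top 63.6% of its list). It was 2479 bp from the clone #5 PLAG1-S summit, beyond the 100 bp of co-binding, and the nearest clone #4 USF2 summit was 149691 bp away. TIPARP, an ADP-ribosyltransferase that limits AHR activity (chr3:156674590-156706770), had a pair of PLAG1-S peaks in each clone, near its start. In clone #4 they were enriched 4.15- and 4.63-fold (18 and 21 fragments), and in clone #5 3.80- and 3.95-fold (14 and 17 fragments). The first clone #4 peak (chr3:156675025-156675313) met the first clone #5 peak (chr3:156675306-156675461) only at its edge, with summits 178 bp apart. That clone #5 peak also met the second clone #4 peak (chr3:156675368-156675810). The second clone #4 summit was 4 bp from the start of TIPARP-AS1, the antisense RNA of the locus, and the second clone #5 summit was 92 bp from it. No USF2 peak was called at TIPARP or CYP1A1.

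**Figure D2:**
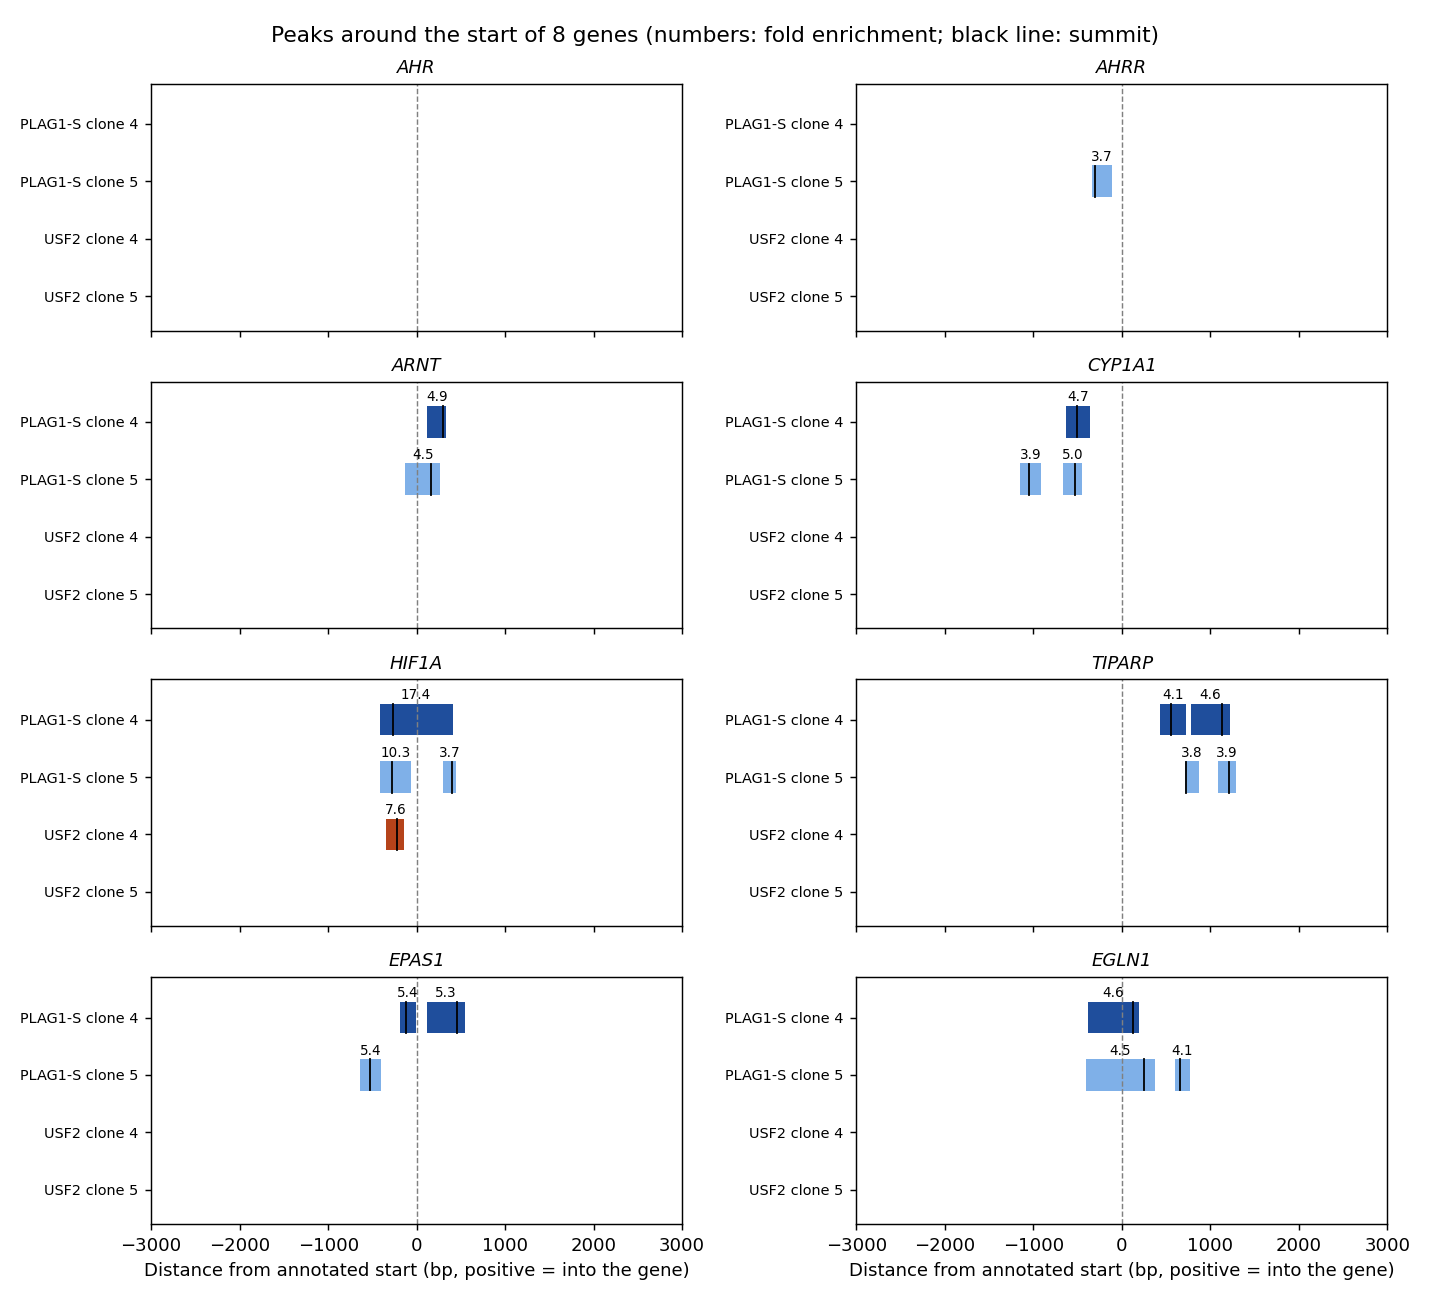
Peaks within 3 kb of the annotated start of the 8 genes with a matched start, one row per library, with distance from the start in bp on the x axis (positive into the gene), boxes as peak intervals, black lines as summits and numbers as fold enrichment. AHR has no box, and the USF2 box at HIF1A (7.6 in clone #4) is the only USF2 peak in these windows.

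AHRR, the repressor that competes with AHR for ARNT, had more peaks than the other genes. Along its 117 kb (chr5:321714-438285) lay 10 clone #4 and 14 clone #5 PLAG1-S peaks, of which 8 clone #4 peaks met a clone #5 peak. The site with the highest fold enrichment had its clone #4 summit 93058 bp past the nearer annotated start. There clone #4 had a 1411 bp wide peak (chr5:415221-416631) with a fold enrichment of 8.39 and 120 fragments, and clone #5 had 2 peaks, the stronger of which (chr5:415216-415843) had 9.77 and 128 fragments. Their summits were 7 bp apart. This site had a local background of 13.4 and 12.2 fragments, above the 90th percentile of the lists (5.90 and 5.59), so it held more fragments than the HIF1A summit at a lower fold enrichment. Whether the input level bears on the number of peaks at AHRR was not tested.

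The next AHRR site in strength (chr5:373721-374150 in clone #4) had its summit 51269 bp past the nearer start, with fold enrichments of 6.93 and 6.74 and 29 and 25 fragments. The other reproducible sites had clone #4 fold enrichments from 3.09 to 6.05. Of the 8 sites, 6 were lower in clone #5, and the widest difference was at chr5:399743-400098, 5.90 in clone #4 and 3.89 in clone #5, with 25 and 15 fragments whose Poisson intervals overlapped (16.2 to 36.9 and 8.40 to 24.7). At the start of AHRR the only peak was in clone #5 (chr5:321380-321602, fold enrichment 3.72, 16 fragments). None of the reproducible sites was within 1 kb of an annotated AHRR start.

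USF2 at AHRR was called in clone #4 only, and weakly. One peak (chr5:344467-344732, fold enrichment 2.79, 21 fragments, top 92.8% of its list) overlapped PLAG1-S peaks of both clones with fold enrichments of 3.77 and 3.66. The other (chr5:438507-438667, fold enrichment 3.19, 15 fragments) was 317 bp past the end of the gene with no PLAG1-S peak near. Just outside the 3 kb limit, strong PLAG1-S peaks stood on both sides of AHRR. The one before it (chr5:317082-317651 in clone #4, 4063 bp from the gene) had fold enrichments of 15.7 and 12.2, and a clone #4 USF2 peak of 3.93 lay inside both PLAG1-S peaks. The one after it (chr5:442284-443095 in clone #4, 3999 bp from the gene) had 10.9 and 7.35, and lay near the start of the neighboring gene EXOC3. These were not counted as peaks of AHRR, and apart from CYP1A1, with a clone #4 peak of 3.93 at 8683 bp, no other gene of the 10 had a peak between 3 and 10 kb away.

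**Figure D3:**
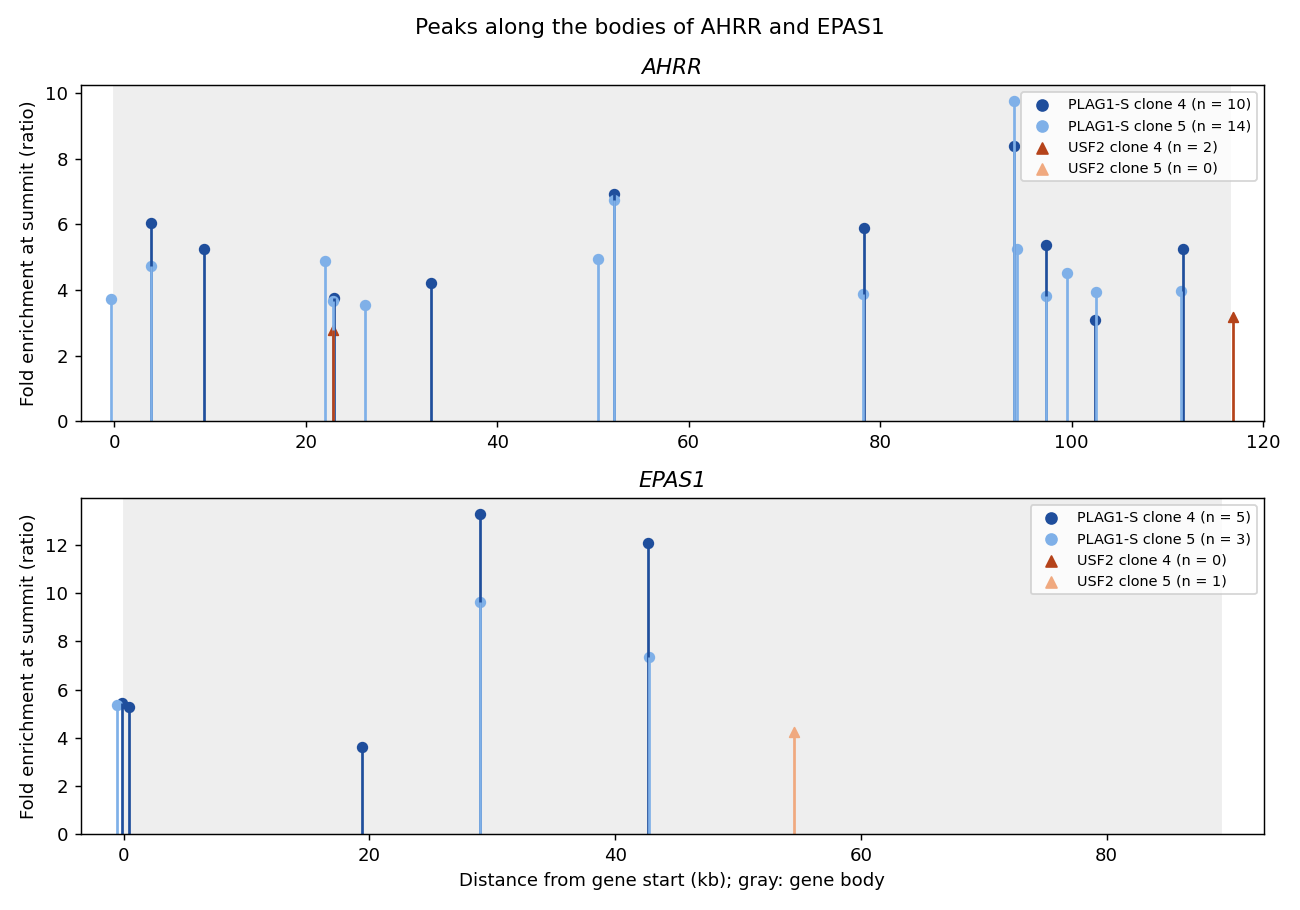
Fold enrichment at each summit along AHRR and EPAS1, with distance from the gene start in kb on the x axis, the gene body in gray, PLAG1-S as circles and USF2 as triangles. AHRR has 10 and 14 PLAG1-S peaks in clones #4 and #5, the highest at 8.39 and 9.77, and EPAS1 has 5 and 3, the highest at 13.3 and 9.64.

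Over the genes together, 18 clone #4 PLAG1-S peaks were reproducible, 8 of them at AHRR. Of the 10 others, 6 had their summit within 1 kb of an annotated start of the same gene. The sites at CYP1B1 and VHL could not be counted, since no start was matched for these genes. The fold enrichments of the 18 ranged from 3.09 to 17.4 in clone #4 and from 3.66 to 10.3 in clone #5. Their medians were 5.31 and 4.57, where all reproducible peaks had medians of 6.39 and 5.69. The fold enrichment was lower in clone #5 at 14 of the 18 sites (77.8%) and at 66.3% of all reproducible peaks, with median ratios of 0.880 and 0.887. Thus the shift between the clones at these genes was near that of the whole lists. The summits of the clones were 47.5 bp apart in the median (range 7 to 203 bp), compared with 32 bp over all reproducible peaks.

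PLAG1-S peaks seen in a single clone did not exceed a fold enrichment of 5.44. Of the 24 clone #4 peaks 6 had no clone #5 partner, with fold enrichments from 3.60 to 5.44, and of the 28 clone #5 peaks 8 had no clone #4 partner, from 3.55 to 5.37. The shares that met a peak of the other clone, 75.0% and 71.4%, stand beside 57.1% and 72.6% of the whole lists. At a −log10 q of at least 10 in both clones, 3 genes kept a reproducible PLAG1-S peak (HIF1A, EPAS1 and AHRR), against 33.0% of protein-coding genes.

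For USF2 a peak in at least 1 clone was present at 4 genes (AHRR and HIF1A in clone #4, CYP1B1 and EPAS1 in clone #5), against 27.1% of protein-coding genes, and none of the 5 peaks met a peak of the other clone. Compared within a clone, PLAG1-S and USF2 peaks lay within 100 bp of each other at HIF1A and AHRR in clone #4, which is 2 of 10 genes where 20.5% of protein-coding genes had such a site. In clone #5 no gene of the 10 had one, where 11.3% of protein-coding genes did.

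The same counts were made over 41 other genes of these pathways, a list chosen with earlier results of these data known. No test was made on them. Of these, 31 (75.6%) had a reproducible PLAG1-S peak, beside the background of 52.0%, and 7 (17.1%) had a reproducible USF2 peak, beside 10.3%. All 7 were co-bound, and 6 of them are described here. These are EGLN2, a HIF prolyl hydroxylase, CITED2, which competes with HIF for its coactivators, and the HIF targets BHLHE40, BNIP3L, DDIT4 and PGK1. By role, a reproducible PLAG1-S peak lay at 17 of 22 HIF targets and 4 of 4 genes of the HIF subunit and hydroxylase group. It also lay at 3 of 3 coactivator and inhibitor genes, 3 of 4 VHL ligase subunits and 4 of 5 AHR chaperones and partners. None of the 3 AHR targets on this list had such a peak. Of these, CYP1A2 had a PLAG1-S peak in clone #4 only (fold enrichment 5.02) and NQO1 in clone #5 only (4.53), and ALDH3A1 had none. The AHR targets among the 10 genes, AHRR, CYP1A1, CYP1B1 and TIPARP, each had a reproducible PLAG1-S peak. Neither the chaperone and partner group nor the VHL ligase subunits had a reproducible USF2 peak.

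EGLN2 stood apart from EGLN1 and EGLN3, the other hydroxylases of its kind. Its PLAG1-S fold enrichment was 46.2 in clone #4 and 35.7 in clone #5, with 203 and 151 fragments, and its USF2 fold enrichment was 24.9 and 18.5, with 111 and 80 fragments. The clone #4 PLAG1-S peak (chr19:40798678-40799866) was in the top 0.0798% of its list, and its summit was 62 bp before the start. The E-box in the EGLN2 sequence above begins 49 bp before the start and its center is within 5 bp of the clone #4 and 3 bp of the clone #5 USF2 summit. At EGLN3 the PLAG1-S fold enrichments were 5.53 and 5.56, near the 4.56 and 4.45 of EGLN1, and no USF2 peak was called at EGLN1 or EGLN3.

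Of the other co-bound genes, BHLHE40 had PLAG1-S fold enrichments of 21.5 and 18.0 and USF2 fold enrichments of 10.3 and 6.04 in clones #4 and #5. CITED2 reached 18.0 and 11.9 with PLAG1-S, and 5.28 and 3.75 with USF2. PGK1, a glycolytic enzyme gene, reached 17.7 and 8.33 with PLAG1-S, and 5.26 and 6.65 with USF2, which made it the one of the 6 with a higher USF2 value in clone #5. Its USF2 summits in clones #4 and #5 lay 82 bp and 351 bp before the start. The Poisson intervals of their 19 and 24 fragments overlapped (11.4 to 29.7 and 15.4 to 35.7). At the co-bound site of BNIP3L the PLAG1-S values were 11.8 and 9.57 and the USF2 values 5.88 and 5.68. A second clone #4 pair inside BNIP3L was higher, with 21.2 for PLAG1-S and 8.21 for USF2 at the same summit. The wide clone #5 PLAG1-S peak reached this place too, and the USF2 peak there was in clone #4 only. The stronger of 2 DDIT4 sites had PLAG1-S values of 8.86 and 7.12 and USF2 values of 6.29 and 5.36.

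**Figure D4:**
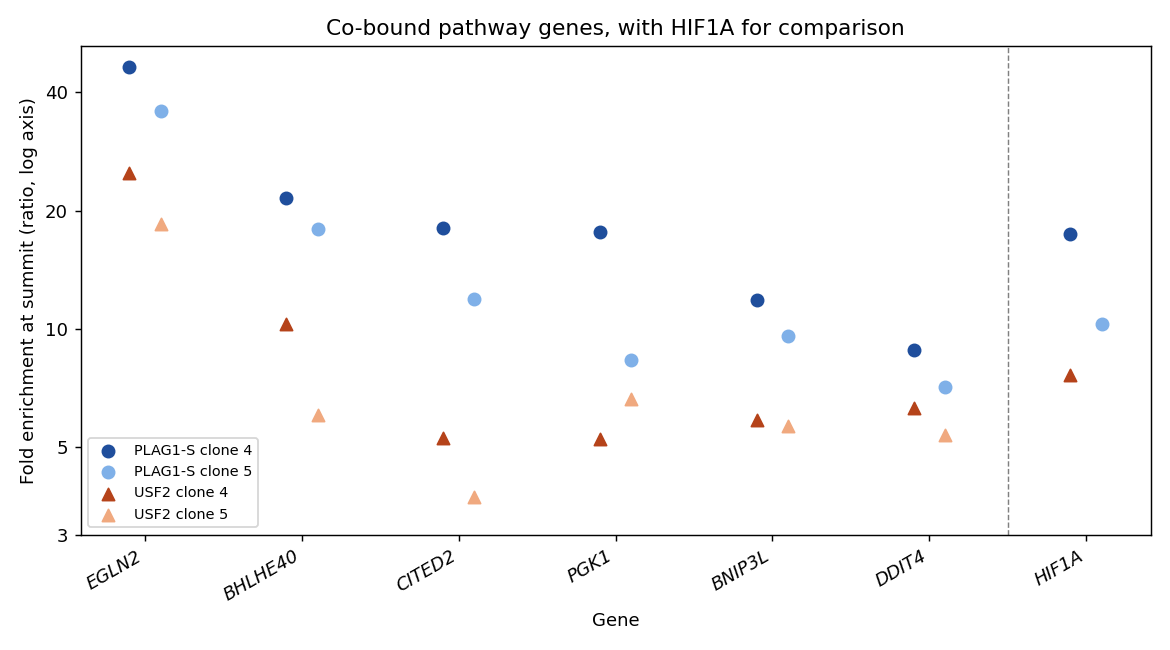
Fold enrichment (log axis) of PLAG1-S (circles) and USF2 (triangles) in clones #4 and #5 at the co-bound site of highest fold of 6 co-bound pathway genes, with HIF1A on the right of the dashed line. EGLN2 is the highest for both factors, and HIF1A has no USF2 value for clone #5.

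Of the pathway genes without a co-bound site, the largest clone #4 PLAG1-S fold enrichments were at SLC2A1, the glucose transporter (21.6, and 20.9 in clone #5), HK2, a hexokinase (17.9 and 16.0), LDHA, lactate dehydrogenase A (16.3 and 13.8), KDM3A, a histone demethylase (16.1 and 12.2) and EP300, a coactivator (14.2 and 12.8). HIF1A, at 17.4 and 10.3, was within their range in clone #4. SLC2A1, HK2, LDHA and KDM3A each had a USF2 peak in clone #4 only, with fold enrichments of 3.31, 5.88, 3.68 and 5.41, as HIF1A did. At HK2, LDHA and KDM3A it met the PLAG1-S peak given above. At SLC2A1 the 21.6-fold PLAG1-S summit lay 22330 bp into the gene and had no USF2 peak. The USF2 peak there met clone #4 PLAG1-S peaks near the start, with fold enrichments of 14.8 and 8.53.

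Of the pathway genes 8 had a CACGTG in a start window, with 10 E-boxes (ANKRD37, BHLHE40, BNIP3, CITED2, EGLN2, HK2, LDHA and RBX1). Each of the 10 lay between 1 and 95 bp from a clone #4 USF2 summit, and within 54 bp of a clone #4 and 71 bp of a clone #5 PLAG1-S summit. In clone #5, 3 of the 8 genes (BHLHE40, CITED2 and EGLN2) had a USF2 summit within 100 bp of the E-box, and at the others the nearest was at least 71378 bp away. Beside these 3 of 8 genes, 38.9% of all coding start windows with a CACGTG met a reproducible USF2 peak. For PLAG1-S the share was 69.9%. The share of such windows with a clone #4 USF2 peak was not computed, so the clone #4 count has no background beside it. Start windows were searched for the 33 of the 41 genes with a matched start. Among these and the 8 genes with a matched start of the 10, AHR was the one with an E-box in its window and no summit of any list within 100 bp of it.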

How the data were processed

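ChIP-seq was performed on K562 clones #4 and #5, and the labels give 42.5 M reads of 50 bp per immunoprecipitation and 55 M per input, as single ends. The submitters' processing notes name FastQC, cutadapt, HISAT2 2.0.4, SAMtools, MACS2, bedtools and HOMER, and hg38. Peaks were called per library against the merged inputs, which all 4 lists share. The deposited columns are a fold (ratio) over local background, the −log10 p-value and −log10 q-value, and a score, 10 times the −log10 q. The PLAG1-S lists end at q of 0.0099 and 0.0097, the USF2 lists at 0.049 and 0.048.

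The deposited fold and −log10 p were solved for the fragments and local background at each summit, and gave whole numbers within a tolerance of 0.001 for at least 99.9% of peaks. The overlaps were tested on planted intervals. The recovery was rerun on values recomputed from fragments that it had itself recovered, so this rerun is no independent test. Genes were taken from RefSeq GRCh38.p14 (chromosomes 1 to 22, X and Y). The 10 genes and the list of 41 were chosen with earlier results of these data known. Named from the 41 are the co-bound genes, except 1 that is not reported here, and the 5 others with the largest clone #4 PLAG1-S fold. CYP1A2, NQO1, ALDH3A1, EGLN3, ANKRD37, BNIP3 and RBX1 were named after their values were seen. Same-numbered samples share a clone, so the clone pairs the factors. The study's methods describe replicate lines from distinct transductions but do not say how clones #4 and #5 arose. Exons were not used. Fold enrichments are relative to each library, and factors were compared by presence and rank. Alternatives changed the q threshold, flank, region, overlap, distance between factors and clones used. Python 3.11.15, numpy 2.4.6, pandas 2.3.3, scipy 1.17.1 and matplotlib 3.10.9 were used.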

Additional observations from a re-analysis of the deposited data

How the results depend on the processing

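Of 64 recomputed counts, 50 stayed within 1.5 times the reported one and 14 moved. Of the 50, 7 counts of USF2 and 10 of co-binding at the 10 genes stayed at 0. Settings that only remove peaks could not have changed these. At a −log10 q of at least 10, genes of the 10 with a reproducible PLAG1-S peak fell from 9 to 3, and the pathway genes with a USF2 or co-bound peak from 7 to 4. With the union of the clones, USF2 was present at 4 and co-binding at 2 of the 10 genes, and at 16 and 15 of the 41. Leaving out 1 clone gave USF2 at 2 of the 10 in either case (CYP1B1 and EPAS1 without clone #4, AHRR and HIF1A without clone #5) and co-binding at 0 to 2, and among the 41 it gave USF2 at 8 to 16 and co-binding at 8 to 15, the higher values without clone #5. With the replicate block, PLAG1-S and USF2 paired within each clone, the count of co-bound genes averaged 1 of the 10 and 11.5 of the 41. A 50% reciprocal overlap between clones left PLAG1-S at 6 of the 10 genes, without ARNT, HIF1A and TIPARP. USF2 peaks at q of 0.01 or less, an alternative chosen after seeing the data, changed no count. This setting only removes peaks, so the counts of 0 at the 10 genes could not change. The shifts under a stricter q, 1 clone or the union follow from their construction, since fewer peaks or fewer clones are asked for. No setting could give AHR a peak, since the nearest peak of any list was 594 kb away and the widest flank was 10 kb. The 11 fragments of the weakest peaks limit what could be seen.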
